A study of Mus musculus with 9 samples.

Results

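The 10 genes described here encode proteins of the cartilage matrix other than collagens: *Acan*, *Vcan*, *Hapln1*, *Matn2*, *Matn3*, *Matn4*, *Comp*, *Chad*, *Cytl1* and *Snorc*. They were chosen by symbol, with earlier results of these data known, and all 10 were found among the 54534 genes listed for each library. The libraries came from knees of Gdf5-Cre;Tom;Pdgfrα-H2BGFP mice aged between 11 and 12 weeks, and every mouse carried all of these alleles. Cre expressed from Gdf5, a gene of the embryonic joint interzone, marks the descendants of those cells with the red reporter Tom, and cells that express Pdgfrα carry GFP in the nucleus. Live Tom+ cells (Gdf5 lineage) and Tom-GFP+ cells (Pdgfrα-expressing cells outside that lineage) were sorted from steady-state joints and from joints 6 days after injury, and read with a 5′ droplet kit of 10x Genomics that counts unique molecular identifiers (UMIs). The injury was an arthrotomy with a scratch through the full thickness of the cartilage in the trochlear groove of the right knee. There were 2 steady-state and 4 injured Tom+ libraries, and 1 steady-state and 2 injured Tom-GFP+ libraries. No library from a sham operation was analysed here, so the scratch and the opening of the joint cannot be told apart. In the study, the steady-state mice were 11 and the injured mice 12 weeks old. Age and injury state therefore cannot be told apart either. The Tom-GFP+ sort keeps only cells that express Pdgfrα, whereas the Tom+ sort does not ask for it.

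Cartilage is a collagen network filled with a gel of proteoglycan. Aggrecan, the product of *Acan*, is a large core protein covered with chondroitin sulfate chains, and it binds the long sugar hyaluronan in complexes held together by the link protein *Hapln1*. Matrilins, COMP and chondroadherin are smaller adaptor proteins that tie collagen fibrils, proteoglycans and cells to each other, and several of them are also made by tendon, meniscus and bone cells.

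The 9 libraries held between 2866464 and 15033902 UMIs, and 4788 of 5161 barcodes were kept, with a median depth per cell between 8050.5 and 18567 UMIs in a library. The tdTom transcript was found in 83.1% to 97.5% of the cells of the Tom+ libraries and in 3.97% to 8.75% of the cells of the Tom-GFP+ libraries. Cells were assigned to classes by counting detected marker genes, none of them a member of the list of 10. This gave 2663 fibroblasts (at least 2 of *Thy1*, *Cd34* and *Pdgfra*), 733 lining fibroblasts (FLS, at least 5 of 7 markers such as *Clic5* and *Prg4*), 210 osteoblast-lineage cells, 226 tenocyte-lineage cells (at least 3 of 5 markers such as *Tnmd* and *Scx*), 99 chondrocyte-lineage cells (at least 3 of 6 collagens of cartilage such as *Col2a1*) and 174 Prg4+Creb5+ cells in which *Clic5* was not detected. Such a class is a range and not a sharp type, since many cells passed a gate with the smallest allowed number of markers. Before each cell was placed in a single class, 1365 of 3054 cells did so at the fibroblast gate. At the tenocyte-lineage and osteoblast-lineage gates it was 165 of 245 and 146 of 257 cells. Levels are given as CPM: within a library, the UMIs of all cells of a class were added up, and those of a gene were scaled to 1e+06 of that total, for libraries with at least 10 cells of the class. In such sums, fewer cells that express a gene and less RNA per cell cannot be told apart. CPM from this kit are not scaled to transcript length, so levels are compared between cells and not between genes.

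*Acan*, *Matn3*, *Cytl1* and *Chad* were highest in chondrocyte-lineage cells in all groups with enough cells, and the 250 bases before their annotated starts are shown because *Acan* was also read in other classes after injury while *Matn3* stayed mostly in this one. The sequences are the RefSeq records for GRCm38.p6, printed 5′ to 3′ on the strand of the gene, and capitals mark the TATA motif TATAAA. *Acan* lies at chr7:79052976-79053225, *Matn3* at chr12:8947679-8947928, *Cytl1* at chr5:37735269-37735518 and *Chad* at chr11:94564797-94565046, each on the plus strand.
Acan: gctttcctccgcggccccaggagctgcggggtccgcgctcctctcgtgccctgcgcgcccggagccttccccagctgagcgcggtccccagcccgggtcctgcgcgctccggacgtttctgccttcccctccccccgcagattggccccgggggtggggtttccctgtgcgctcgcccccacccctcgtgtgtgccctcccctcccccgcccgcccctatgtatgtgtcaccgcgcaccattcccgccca
Matn3: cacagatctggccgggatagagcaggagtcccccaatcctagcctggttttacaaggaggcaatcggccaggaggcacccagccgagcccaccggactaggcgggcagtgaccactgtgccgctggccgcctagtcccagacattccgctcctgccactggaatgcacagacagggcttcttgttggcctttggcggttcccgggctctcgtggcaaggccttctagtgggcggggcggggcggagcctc
Cytl1: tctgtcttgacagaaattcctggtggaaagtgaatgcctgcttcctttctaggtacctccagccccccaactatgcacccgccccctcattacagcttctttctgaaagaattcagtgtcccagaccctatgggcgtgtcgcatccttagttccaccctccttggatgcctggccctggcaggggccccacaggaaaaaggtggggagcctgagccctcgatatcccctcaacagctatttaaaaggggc
Chad: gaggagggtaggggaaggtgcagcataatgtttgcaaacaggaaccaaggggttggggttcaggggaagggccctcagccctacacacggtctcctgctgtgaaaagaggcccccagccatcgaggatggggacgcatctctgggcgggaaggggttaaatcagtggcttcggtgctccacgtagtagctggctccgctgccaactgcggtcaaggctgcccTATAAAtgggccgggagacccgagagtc
Sox9, the factor that drives chondrocyte development, recognises sequences that hold ACAAAG or ACAAT. Read on both strands, neither string was in these 4 windows. Of 27025 mouse promoter windows of this length, 16.5% held ACAAAG, 28.3% held ACAAT and 39.4% held at least 1 of them. Among the 7 members with an entry, *Hapln1* alone held ACAAT, and *Chad* alone held TATAAA, which was in 13.0% of all windows. The absence of these letters says nothing about the binding of a factor, here or elsewhere in the gene. By GENCODE, the window of *Acan* also lies in an intron of *Gm26633* on the other strand, and that of *Chad* in an intron of *Acsf2*. *Hapln1* (chromosome 13, 89539796 to 89611652, plus strand) and *Vcan* (chromosome 13, 89655312 to 89742509, minus strand) are neighbours, 43659 bases apart with 0 annotated genes between them.

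The map of levels by class orders the 10 genes by the cells that used them. *Snorc* and *Matn3* were nearly restricted to chondrocyte-lineage cells, and *Cytl1* was high there and in a few cells elsewhere. *Acan* and *Hapln1* were highest in chondrocyte-lineage cells but were read in the bone lineage too and, mainly after injury, in the tendon lineage. *Comp* and *Chad* were shared between cartilage, tendon and bone, and *Matn4* between cartilage, lining and bone. *Comp* was also read in fibroblasts, at lower levels, and they held 47.5% of its UMIs in the steady state and 48.1% after injury. *Vcan* and *Matn2* lay mainly in fibroblasts and other cells outside the chondrocyte class. In the 11 steady-state Tom-GFP+ chondrocyte-lineage cells, however, *Matn2* stood at 113.8 CPM, from 13 UMIs. The chondrocyte-lineage class held a median of 6 or 7 of the 10 genes per cell in each group. Fibroblasts held a median of 1 in the steady state and 2 after injury, and tenocyte-lineage cells 2.5 in the Tom+ and 2.0 in the Tom-GFP+ steady state and 4 after injury. Depth per cell was higher after injury, which raises such counts.

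**Figure D1:**
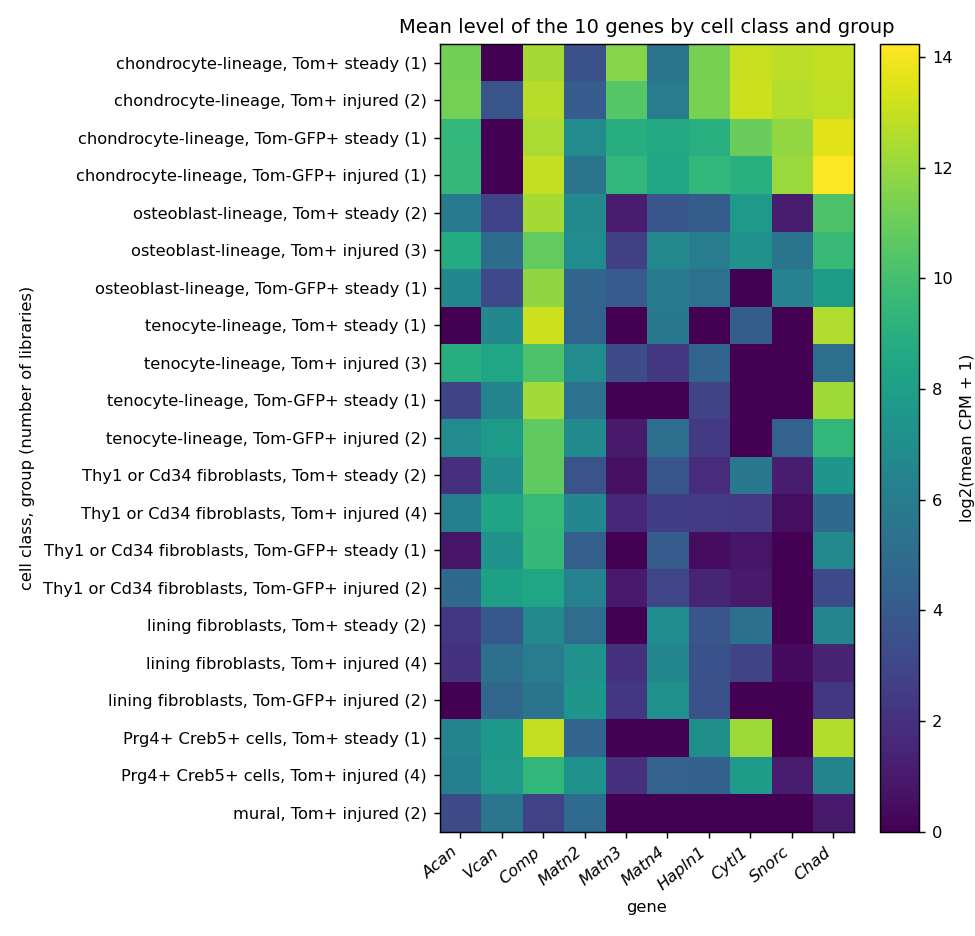
Mean level of each gene, as log2(mean CPM + 1) on the colour scale, in each class and group with at least 1 library of 10 cells or more. Acan is high in chondrocyte-lineage cells in every group. In Tom+ fibroblasts, tenocyte-lineage and osteoblast-lineage cells it is higher in the injured than in the steady-state group. Snorc and Matn3 are highest in the chondrocyte-lineage rows.

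Chondrocyte-lineage cells were compared with the fibroblasts of the same library, over 5 libraries with enough of both, to see how each gene stood as a gene of cartilage. Of 8958 genes tested in edgeR, 19.0% passed an adjusted p of 0.05, 7.57% higher and 11.4% lower, and of the 10 cartilage genes 8 were higher, 1 was lower and 1 did not pass. The median log2 fold change over all genes was -0.14, so differences are read against that value. Aggrecan transcripts stood at 2333 CPM in the steady-state Tom+ library 2, 691 in the steady-state Tom-GFP+ library, 2167 and 2768 in the injured Tom+ libraries 3 and 4, and 699.9 in the injured Tom-GFP+ library 1. Among these libraries the Tom+ values exceeded the Tom-GFP+ values, an order that did not hold in libraries with fewer than 10 such cells (223.8 CPM in 3 cells of steady-state Tom+ library 1 and 2018 CPM in 5 cells of injured Tom-GFP+ library 2). All 5 values exceeded the fibroblast values of the same libraries (0.728 to 53.5 CPM). In its steady-state chondrocyte cluster, the study reports a superficial zone phenotype for Tom+ cells. For Tom- cells it reports a mature or hypertrophic phenotype and a likely origin in the growth plate. Lineage and kind of chondrocyte therefore cannot be told apart in the levels given here and below. The log2 fold change of *Acan* was 7.32 ± 0.58 (SE, 5 libraries, adjusted p = 7.25e-07, edgeR quasi-likelihood test).

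*Hapln1*, whose protein locks aggrecan to hyaluronan, ran from 490.1 to 2791 CPM in the same 5 libraries against at most 5.04 in fibroblasts, a log2 fold change of 9.82 ± 0.38 (adjusted p = 5.91e-10, edgeR). Nearly every chondrocyte-lineage cell that held *Acan* held *Hapln1* as well: 16 of 17, 10 of 11, 52 of 53 and 15 of 18 cells held both in steady-state Tom+, steady-state Tom-GFP+, injured Tom+ and injured Tom-GFP+ cells. *Vcan*, the relative of aggrecan found in loose connective tissue, was the single gene that was lower, by 4.86 ± 0.56 on the log2 scale (adjusted p = 2.24e-05, edgeR). It had 0 UMIs in 4 of the 5 libraries and 23.6 CPM in the other, whereas the fibroblasts held between 127.8 and 263.9 CPM. Cells of the chondrocyte class with both *Acan* and *Vcan* were seen in injured Tom+ cells alone, 4 of 53.

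*Snorc*, a small transmembrane proteoglycan of cartilage, had the largest difference of the 10, 13.16 ± 0.59 on the log2 scale (adjusted p = 2.28e-09, edgeR), with 3869 to 7307 CPM against at most 1.80 in fibroblasts. *Matn3*, a matrilin of growth and articular cartilage, ran from 464 to 3249 CPM and was higher by 9.47 ± 0.52 on the log2 scale (adjusted p = 2.74e-08, edgeR). Of the chondrocyte-lineage cells with *Matn3*, all held *Snorc* as well: 7, 6, 15 and 10 cells in the 4 groups, and 0 cells held *Matn3* without *Snorc*. *Cytl1*, a secreted cytokine-like protein of chondrocytes, ran from 532 to 9743 CPM and was higher by 9.52 ± 0.74 on the log2 scale (adjusted p = 6.33e-07, edgeR). The 3 Tom+ libraries stood at 8454, 9743 and 8731 CPM and the Tom-GFP+ libraries at 2031 and 532, so the lineages did not overlap for *Cytl1* among libraries with 10 cells, whereas injured Tom+ library 2, with 7 cells, held 1828 CPM.

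Within the injured Tom+ chondrocyte-lineage cells, *Cytl1* was unevenly spread. Of the 28 cells without a detected bone marker, 26 held it, at 17298 CPM pooled over cells, and of the 25 cells with a bone marker 7 held it, at 388 CPM pooled. *Acan* was found in all cells of both subsets, at 1178 and 2819 CPM. Median depth was 6498 and 14170 UMIs, so the subset with more *Cytl1* was the shallower. In the steady-state Tom+ cells the same split gave 11034 and 9828 CPM of *Cytl1*, from 12 and 5 cells. These are sums over cells of the class, given as a description.

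*Chad*, a leucine-rich protein that binds cells to cartilage collagen, ran from 6955 to 19235 CPM and was higher than in fibroblasts by 7.95 ± 0.74 on the log2 scale (adjusted p = 2.95e-06, edgeR). Here the Tom-GFP+ libraries, at 12516 and 19235 CPM, lay above the Tom+ libraries, at 7856, 6955 and 8133, while injured Tom-GFP+ library 2, with 5 cells, held 4966 CPM. *Matn4*, a matrilin with a wide tissue distribution, followed that order: 394 and 372 CPM in the Tom-GFP+ libraries against 43.1, 55.6 and 74.7 in the Tom+ libraries. *Comp*, the pentameric thrombospondin that binds collagen fibrils in cartilage and tendon, was between 5146 and 7779 CPM with no order by lineage. *Matn4* and *Comp* were higher than in fibroblasts by 4.12 ± 0.57 and 2.98 ± 0.47 on the log2 scale (adjusted p = 0.000116 and 0.000345, edgeR). With cells that passed 2 or more gates left out, the difference of *Comp* was 1.17 and no longer passed (adjusted p = 0.220, edgeR). *Matn2*, a matrilin of many soft tissues, did not pass, at -0.42 ± 0.60 (adjusted p = 0.705, edgeR). It stood at 113.8 and 44.3 CPM in the steady-state and injured Tom-GFP+ libraries, from 13 and 5 UMIs. The Tom+ libraries stood at 10.8 CPM in the steady state and at 9.26 and 23.6 CPM after injury. Of these libraries, only the steady-state Tom-GFP+ one lay above its fibroblasts, which held 18.6 CPM. Injured chondrocyte-lineage cells held 35 *Matn2* UMIs in all, with 7 in these Tom+ libraries and 5 in this Tom-GFP+ library. The rest lay in libraries with fewer than 10 such cells, so no order by lineage is read from these values. An injury effect in chondrocyte-lineage cells was not tested here, since only 1 steady-state library of each lineage had 10 such cells.

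Bone and tendon lineage cells held part of the same set. Osteoblast-lineage cells exceeded fibroblasts of the same library, over 6 libraries, for 5 of 7 members tested (11.2% of 8672 genes passed, 4.89% higher and 6.35% lower). These were *Chad*, *Hapln1*, *Acan*, *Matn4* and *Comp*, at log2 fold changes of 3.62 ± 0.65, 3.37 ± 0.43, 2.92 ± 0.40, 2.69 ± 0.80 and 1.69 ± 0.22 (adjusted p = 0.00213, 0.000153, 0.000246, 0.0455 and 0.000171, edgeR). *Vcan* was lower by 3.73 ± 0.26 on the log2 scale (adjusted p = 6.97e-07, edgeR). Tenocyte-lineage cells exceeded fibroblasts, over 7 libraries, for 4 of 7 members tested (5.64% of 9573 genes passed, 2.21% higher and 3.43% lower): *Chad* by 4.35 ± 0.71, *Acan* by 2.31 ± 0.27, *Comp* by 1.92 ± 0.26 and *Hapln1* by 1.68 ± 0.40 on the log2 scale (adjusted p = 0.0013, 7.7e-05, 0.000256 and 0.0172, edgeR). Under a stricter tendon gate *Comp* no longer passed (adjusted p = 0.0767, edgeR), and *Matn4* in bone-lineage cells lost its call under 7 of 14 alternatives. In steady-state Tom+ libraries 1 and 2 that gene stood at 5.13 and 20.0 CPM, against 8.91 and 15.1 in fibroblasts. For *Acan* and *Hapln1* in tenocyte-lineage cells, the difference rested mainly on injured libraries. The steady-state Tom+ library held 0 UMIs of each and the steady-state Tom-GFP+ library 1 UMI of each. The difference of *Chad* was smallest in the injured Tom+ libraries, at 5.23 to 72.0 CPM against 2.27 to 56.0 in fibroblasts. In the other libraries tested it was 329.1 to 5842 against 6.03 to 137.8 CPM.

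Lining fibroblasts carried another part of the set. Over 8 libraries, 7 members were tested and all 7 passed, 3 higher and 4 lower than in fibroblasts of the same library, where 37.1% of 10080 genes passed, 17.7% higher and 19.4% lower. *Matn4* was higher by 3.98 ± 0.24 on the log2 scale, with 44.4 to 156.6 CPM against 1.11 to 15.1 (adjusted p = 3e-08, edgeR). *Hapln1* was higher by 1.47 ± 0.36 and *Matn2* by 0.74 ± 0.13 (adjusted p = 0.00554 and 0.000606, edgeR). The large proteoglycans were lower in the lining, with differences of -4.42 ± 0.40 for *Acan* and -3.41 ± 0.15 for *Vcan* on the log2 scale (adjusted p = 1.2e-06 and 2.19e-09, edgeR). For *Acan* this difference lay in the 6 injured libraries, in each of which the lining was lower. In the steady-state Tom+ libraries the lining stood at 0 and 7.74 CPM and the fibroblasts at 1.49 and 3.96, lower in library 1 and higher in library 2. *Comp* and *Chad* were lower as well, at -3.80 ± 0.44 and -2.41 ± 0.59 (adjusted p = 1.37e-05 and 0.00543, edgeR). For *Chad* this did not hold in every library. In steady-state Tom+ library 2 the lining stood at 174.2 CPM against 137.8 in fibroblasts. In injured Tom-GFP+ library 2 it stood at 6.08 against 6.03 CPM.

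The shares of all UMIs of a gene show where each gene was read, though they also depend on how many cells of a class were sorted and how deeply they were read. In the steady state, 82.9% of the 625 *Acan* UMIs lay in the chondrocyte-lineage class, 7.68% in osteoblast-lineage cells and 2.56% in fibroblasts. After injury, of 5614 *Acan* UMIs, 35.1% lay in fibroblasts, 26.8% in chondrocyte-lineage cells, 20.0% in tenocyte-lineage cells and 9.14% in osteoblast-lineage cells. Fibroblasts made up 69.4% of cells in the steady state and 50.6% after injury, and chondrocyte-lineage cells 2.18% and 2.03%. *Snorc* and *Matn3* did not move in this way: 99.0% and 99.1% of their UMIs lay in the chondrocyte-lineage class before injury and 97.0% and 84.8% after it. *Vcan* lay mostly in fibroblasts, 89.6% and 79.2%. The share of *Matn4* in lining fibroblasts was 33.4% and 72.6%, while the lining was 4.36% and 19.3% of cells.

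**Figure D2:**
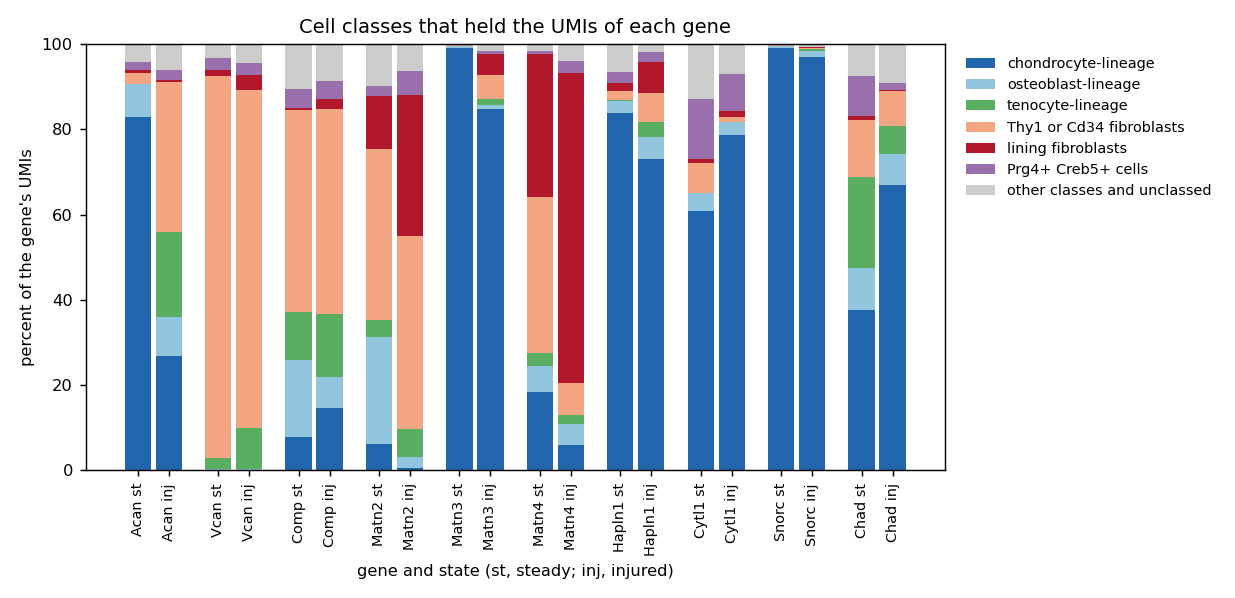
Share of all UMIs of each gene, in percent, found in each cell class in the steady state and after injury, over all kept cells. For Acan the chondrocyte-lineage share is 82.9% before and 26.8% after injury and the fibroblast share 2.56% and 35.1%, whereas Snorc stays at 99.0% and 97.0% in the chondrocyte-lineage class.

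In fibroblasts, the injury comparison asked which of these genes changed outside cartilage. In Tom+ fibroblasts 9 of the 10 genes were tested, and *Matn2*, *Acan* and *Vcan* were higher after injury while 0 were lower. Among the 12851 genes tested 12.5% passed, 5.39% higher and 7.1% lower. *Snorc*, with 6 and 8 UMIs, did not pass the filter on low counts. In Tom-GFP+ fibroblasts *Matn2* alone passed, where 1.12% of genes did, 0.459% higher and 0.661% lower. The steady-state Tom-GFP+ group is 1 library and was taken to vary like the other groups.

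Aggrecan transcripts were almost missing from steady-state fibroblasts. They stood at 1.49 and 3.96 CPM in the 2 steady-state Tom+ libraries, from 3 and 11 UMIs, and at 0.728 in the steady-state Tom-GFP+ library, from 2 UMIs. After injury the Tom+ libraries 1 to 4 stood at 132.8, 85.7, 9.94 and 53.5 CPM, from 1200, 378, 34 and 185 UMIs, and the Tom-GFP+ libraries at 11.2 and 45.4 CPM, from 63 and 113 UMIs. Every injured library lay above every steady-state library, with injured Tom+ library 3 the lowest of its group. The log2 fold change in Tom+ fibroblasts was 4.59 ± 1.19 (SE, 4 against 2 libraries, adjusted p = 0.0387, edgeR). In Tom-GFP+ fibroblasts 176 UMIs against 2 gave a ratio of 29.8 with a counting interval from 8.14 to 248, and the test across libraries did not pass (adjusted p = 0.206, edgeR). The injured Tom+ and Tom-GFP+ libraries overlapped, and *Acan* did not differ by test between the lineages after injury (1.39 ± 0.87 on the log2 scale, adjusted p = 1.0, edgeR).

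The Tom+ call for *Acan* was close to the threshold. It was lost without steady-state Tom+ library 1 (adjusted p = 0.216), without library 2 (0.173), without injured Tom+ library 2 (0.0731) and with a stricter gate (0.0519), all in edgeR, while the log2 fold change stayed between 4.06 and 6.14 under all 19 alternatives. The gene lists came in an older format for the 3 steady-state libraries and injured Tom+ library 1 and in a newer format for the other 5 libraries. Within the older format *Acan* was 1.49 and 3.96 against 132.8 CPM, and with the format as a term the log2 fold change was 5.46 ± 1.14. That fit reads injury in Tom+ cells from injured Tom+ library 1 alone, the highest for *Acan*, since the other injured libraries are of the newer format.

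The share of fibroblasts with an *Acan* UMI gave the same picture in single cells. In Tom+ fibroblasts 7 of 552 cells (1.27%) held 1 or more in the steady state and 355 of 1246 (28.5%) after injury, and in Tom-GFP+ fibroblasts 1 of 340 (0.294%) and 48 of 525 (9.14%). Immune and mural cells of the injured Tom+ libraries, which should lack the gene, held it in 2 of 84 (2.38%) and 2 of 73 cells (2.74%). Their median depth was 9118.5 and 9000 UMIs, against 13981.5 in the injured Tom+ fibroblasts. The immune cells with a UMI were 1 of 3 in library 1 and 1 of 8 in library 2, at 91.4 and 98.4 CPM. In libraries 3 and 4 they were 0 of 47 and 0 of 26. Libraries 1 and 2 thus had too few immune cells to set a background share there. Thinned to 5000 UMIs per cell, the mean share over libraries was 0.654% and 15.5% in steady-state and injured Tom+ fibroblasts, and 0.265% and 6.89% in Tom-GFP+ fibroblasts. The 3 cells with most *Acan* held 7.79% of the UMIs in injured Tom+ fibroblasts, so the level did not rest on a few cells.

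Cartilage collagens were also read in some fibroblasts, and their sum was 1.98 to 12.2 CPM over the 6 marker collagens in steady-state Tom+ libraries and 5.31 to 37.2 CPM in injured ones. With every fibroblast that held any of those collagens left out, *Acan* stood at 1.56 CPM pooled over 519 steady-state Tom+ cells and 79.0 CPM over 1138 injured ones, in 1.16% and 27.5% of cells. In Tom-GFP+ fibroblasts without such a marker it stood at 0.739 CPM in 336 steady-state cells and 19.4 CPM in 499 injured ones. The injured cells stood above the steady-state cells without those that held cartilage collagen as well.

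*Acan* was not even across fibroblasts. In injured Tom+ fibroblasts with 3 or 4 of the injury markers *Lrrc15*, *Adam12*, *Mdk* and *Cthrc1* it stood at 125.7 CPM and was found in 240 of 511 cells. In those with 0 or 1 of them it stood at 17.4 CPM and was found in 30 of 364 cells. Median depth was 19021 and 10753 UMIs. The Tom+ subsets of this paragraph pool 4 libraries that stood between 9.94 and 132.8 CPM, so subset and library cannot be told apart. In injured Tom-GFP+ fibroblasts the same subsets stood at 15.8 and 18.2 CPM, while the gene was found in 21 of 201 (10.4%) and 9 of 205 cells (4.39%), at a median depth of 19081 and 8273 UMIs. Among fibroblasts that held markers of the F1 subset (*Anxa8*, *Slurp1* and *Ociad2*), 263 of 584 injured Tom+ cells (45.0%) held *Acan*, and among those of the F4 subset (*Dpp4*, *Pi16*, *Cd248* and *Sema3c*) 27 of 236 (11.4%). Subsets with more markers detected were also deeper, with a median of 18814.5 UMIs in F1 and 12801 in F4. Cycling and other injured Tom+ fibroblasts held *Acan* at 114.6 and 82.0 CPM pooled.

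**Figure D3:**
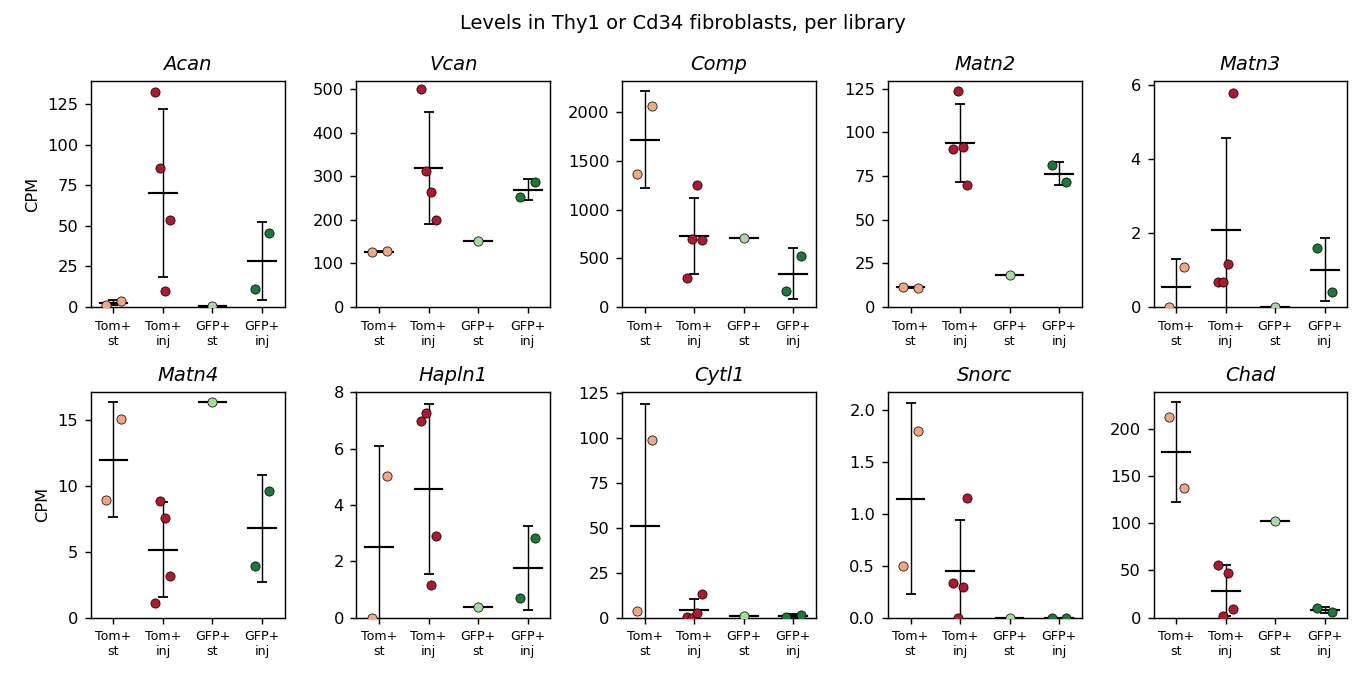
Level of each of the 10 genes in fibroblasts, in CPM on a linear axis from 0 with its own scale in each panel, with 1 point for each of the 9 libraries, a line for the mean of each group and whiskers for the SD where a group has more than 1 library (st, steady state; inj, injured; GFP+, Tom-GFP+). Acan and Matn2 show every injured library above every steady-state library in both lineages, and Vcan shows the same with a smaller distance.

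Versican, the large hyaluronan-binding proteoglycan of loose connective tissue and provisional matrix, was read in the fibroblasts of every library. *Vcan* stood at 125.8 and 127.8 CPM in the steady-state Tom+ libraries and at 500.4, 311.6, 263.9 and 200.1 CPM in the injured Tom+ libraries 1 to 4. In the Tom-GFP+ libraries it stood at 151.1 CPM before and 253.1 and 286.6 CPM after injury. No injured library fell below a steady-state library. *Vcan* was higher in injured Tom+ fibroblasts by 1.31 ± 0.33 on the log2 scale (4 against 2 libraries, adjusted p = 0.0351, edgeR), and the Tom-GFP+ difference of 0.85 ± 0.45 did not pass (adjusted p = 0.326, edgeR).

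The Tom+ call for *Vcan* was lost without steady-state Tom+ library 1 (adjusted p = 0.203) or 2 (0.177), injured Tom+ library 2 (0.0694) or 3 (0.0621), or injured Tom-GFP+ library 1 (0.0537) or 2 (0.056), all in edgeR. With the list format as a term the difference was 1.93 ± 0.26 on the log2 scale in Tom+ and 1.76 ± 0.38 in Tom-GFP+ fibroblasts. The Tom+ value then rests on injured Tom+ library 1, the highest of its group. In Tom-GFP+ cells format and injury coincide, so the term there comes from the Tom+ libraries. Injured Tom+ fibroblasts with 3 or 4 injury markers held *Vcan* at 492.9 CPM and those with 0 or 1 at 189.2 CPM. In these pooled sums subset and library cannot be told apart. Immune and mural cells of the injured Tom+ libraries held 35.4 and 48.5 CPM of *Vcan*.

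*Hapln1* did not pass for injury in fibroblasts. It ran from 0 to 5.04 CPM in the 3 steady-state libraries and from 0.713 to 7.25 CPM in the 6 injured ones, and these ranges overlapped. The difference in Tom+ fibroblasts was 0.77 ± 1.02 on the log2 scale (adjusted p = 0.649, edgeR), an interval wide enough to hold large changes in either direction. Counts were low, with 109 UMIs over the 4 injured Tom+ libraries against 1797 of *Acan*. A UMI of *Hapln1* was found in 7 of 552 steady-state and 55 of 1246 injured Tom+ fibroblasts (1.27% and 4.41%), at a median depth of 8625.5 and 13981.5 UMIs.

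*Matn2* had the smallest adjusted p of the 10 for injury in fibroblasts of both lineages. Its protein is a matrilin of soft connective tissue that assembles into filaments around cells. In Tom+ fibroblasts it stood at 11.4 and 11.2 CPM in the steady state and at 90.6, 123.7, 91.5 and 70.0 CPM after injury, and in Tom-GFP+ fibroblasts at 18.6 CPM and then 81.1 and 71.6 CPM. The lowest injured library stood well above the highest steady-state library. *Matn2* was higher by 3.04 ± 0.27 on the log2 scale in Tom+ fibroblasts (adjusted p = 0.00139, edgeR), and this call was kept under all 19 alternatives, with an adjusted p of at most 0.028.

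In Tom-GFP+ fibroblasts the difference of *Matn2* was 2.05 ± 0.35 (adjusted p = 0.0415, edgeR). That call was lost with a stricter gate (adjusted p = 0.0711), without steady-state Tom+ library 1 (0.0796) or 2 (0.0775), without injured Tom+ library 3 (0.0686) and without injured Tom-GFP+ library 1 (0.179) or 2 (0.094), all in edgeR. The injury effect of Tom+ fibroblasts minus that of Tom-GFP+ fibroblasts was 0.99 ± 0.41 on the log2 scale, which did not pass over all genes (unadjusted p = 0.041, adjusted p = 1.0, edgeR). By that test of the difference between lineages 0.0% of genes passed in edgeR, 233 genes had an unadjusted p under 0.05, and DESeq2 called 2.

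Unlike *Acan*, *Matn2* was spread over many fibroblasts. It was found in 41 of 552 steady-state and 759 of 1246 injured Tom+ fibroblasts (7.43% and 60.9%), and after thinning to 5000 UMIs in 4.40% and 31.8% on average over libraries. Immune cells of the injured Tom+ libraries held it in 3.57% and mural cells in 24.7%. In fibroblasts with 3 or 4 injury markers it stood at 101.2 CPM and in those with 0 or 1 at 80.2 CPM in the injured Tom+ cells, and at 88.8 and 42.9 CPM in the injured Tom-GFP+ cells.

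In lining fibroblasts *Matn2* rose as well. It stood at 20.2 and 44.5 CPM in the steady-state Tom+ libraries, which had 19 and 34 lining cells, and at 124.7, 189.5, 171.7 and 93.2 CPM in the injured ones. The groups did not overlap, and the injured Tom-GFP+ libraries stood at 191.2 and 162.9 CPM. The log2 fold change in Tom+ lining cells was 2.12 ± 0.39 (adjusted p = 0.0199, edgeR), the single one of 7 tested members to pass where 3.8% of 9636 genes did, 1.21% higher and 2.58% lower. It was lost without steady-state Tom+ library 1 (adjusted p = 0.159) or 2 (0.0731), without injured Tom+ library 3 (0.0531) and with the list format as a term (0.112), all in edgeR.

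In the remaining classes *Matn2* was less even. Tenocyte-lineage cells held 23.3 CPM in steady-state Tom+ library 2 and 39.4 in the Tom-GFP+ one, and 86.8 to 153.3 CPM in the 5 injured libraries. Osteoblast-lineage cells held 123.2 and 86.7 CPM in the steady-state Tom+ libraries and 119.9, 140.9 and 99.2 in the injured ones, and these groups overlapped (0.29 ± 0.32 on the log2 scale, adjusted p = 0.715, edgeR). Among the Prg4+Creb5+ cells, *Matn2* stood at 24.2 CPM in the steady-state Tom+ library with 15 cells, from 3 UMIs, and at 118.0 to 209.9 CPM in the 4 injured Tom+ libraries.

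*Matn4* and *Matn3* did not change by test in fibroblasts. *Matn4* stood at 8.91 and 15.1 CPM in steady-state and 1.11, 8.84, 7.60 and 3.18 CPM in injured Tom+ fibroblasts, lower in each injured library than in either steady-state library, with a difference of -1.30 ± 0.71 (adjusted p = 0.243, edgeR). In Tom+ lining cells it was 141.5 and 98.7 CPM and then 44.4, 99.6, 156.6 and 86.0 CPM, which overlapped (-0.22 ± 0.42, adjusted p = 0.828, edgeR). *Matn3* was near its floor in fibroblasts, with 3 UMIs in steady-state and 33 in injured Tom+ cells, a ratio of 2.60 with a counting interval from 0.814 to 13.2.

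Osteoblast-lineage cells held more *Acan* after injury, from a steady-state level that was already above that of fibroblasts. They stood at 51.3 and 57.8 CPM in the steady-state Tom+ libraries and at 488.7, 533.4 and 289.3 CPM in the injured Tom+ libraries 1, 2 and 4, and the groups did not overlap. The injured Tom+ library 3, with 6 such cells, held 160.9 CPM and was left out of the test. *Acan* was higher by 3.03 ± 0.38 on the log2 scale (3 against 2 libraries, adjusted p = 0.00749, edgeR), and *Comp* was lower, at -1.46 ± 0.28 (adjusted p = 0.0326, edgeR). These were 2 of 9 tested members, where 1.97% of 5267 genes passed, 0.475% higher and 1.5% lower. The call for *Acan* was lost without steady-state Tom+ library 1 or 2 and with the replicate number as a block (adjusted p = 0.0588, edgeR). It was kept with the list format as a term, a fit that reads injury from injured Tom+ library 1 alone.

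Chondrocyte markers were also read in bone-lineage cells. The 6 collagens summed to 0 to 15.6 CPM in the steady-state Tom+ libraries and to 8.26 to 666.9 CPM in the injured ones. These ranges overlapped, and a change in the sum was not tested. In bone-lineage cells without any of these collagens, *Acan* stood at 56.8 CPM pooled over 89 steady-state Tom+ cells and at 428.0 CPM over 70 injured ones, and was found in 14 and 54 of them. Steady-state cells of this subset had a median of 5489 UMIs and injured ones 9927.5. *Hapln1* in the same class went from 10.3 and 24.5 CPM to 52.2, 115.9 and 16.5 CPM, with overlap (1.92 ± 0.68, adjusted p = 0.212, edgeR). *Matn4* went from 5.13 and 20.0 CPM to 104.5, 17.8 and 190.1 CPM, again with overlap (2.48 ± 0.93, adjusted p = 0.233, edgeR).

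Tenocyte-lineage cells also held *Acan* after injury. The class held 35 cells (2.72%) in the steady state and 191 (5.45%) after injury. The study also reports *Scx*, a marker of this gate, in fibroblast clusters induced by injury. Whether the class held the same kind of cells before and after injury was not tested. The steady-state Tom+ library 2 had 0 UMIs in 18 cells, where a floor of 3 counts stood at 17.5 CPM. The steady-state Tom-GFP+ library had 1 UMI in 15 cells. After injury the Tom+ libraries 1, 2 and 4 stood at 374.2, 366.0 and 634.4 CPM and the Tom-GFP+ libraries at 106.9 and 128.6 CPM. All 5 injured libraries lay above both steady-state libraries, and the injured Tom+ libraries above the injured Tom-GFP+ libraries. The injured Tom+ library 3, with 7 such cells, held 24.7 CPM from 2 UMIs. A UMI of *Acan* was found in 127 of 142 injured Tom+ cells of the other 3 libraries (89.4%) and in 29 of 42 injured Tom-GFP+ cells (69.0%).

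Only 1 steady-state Tom+ library had 10 tenocyte-lineage cells, and no injury test was run in Tom+ cells. In Tom-GFP+ cells 91 UMIs against 1 gave a ratio of 17.6 with a counting interval from 3.08 to 702, and the test across libraries did not pass (adjusted p = 0.0712, edgeR). Of 6 members tested there 0 passed, where 1.26% of 5718 genes did, while DESeq2 called 99 genes in all, 1 of the members among them. Between the lineages after injury, *Acan* was higher in Tom+ cells by 1.93 ± 0.32 on the log2 scale (adjusted p = 0.171, edgeR). DESeq2 gave an adjusted p = 0.00473 for *Acan*, and edgeR with the replicate number as a block, without the steady-state Tom-GFP+ library, gave 1.65 and an adjusted p = 0.000488. In that comparison 0.0175% of genes passed in edgeR, 1 gene in all, 399 had an unadjusted p under 0.05, DESeq2 called 14 and the replicate block 123. In tenocyte-lineage cells without a cartilage collagen, *Acan* was found in 0 of 16 steady-state and 114 of 135 injured Tom+ cells, and stood at 366.1 CPM in the latter.

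*Acan* was low in the lining before and after injury. In lining fibroblasts the steady-state Tom+ libraries stood at 0 and 7.74 CPM and the injured ones at 8.43, 2.80, 1.28 and 0.480 CPM, and these groups overlapped. The injured Tom+ lining held 33 UMIs in 7 of 611 cells, and 19 of the UMIs lay in 1 cell. In injured Tom-GFP+ lining cells a UMI was found in 0 of 66, which allows up to 5.44% of cells with a UMI (exact Clopper-Pearson interval) and sets no limit on cells that express the gene below detection. *Vcan* in lining cells ran from 6.74 to 21.3 CPM before and from 16.7 to 76.3 CPM after injury (1.26 ± 0.79, adjusted p = 0.417, edgeR).

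**Figure D4:**
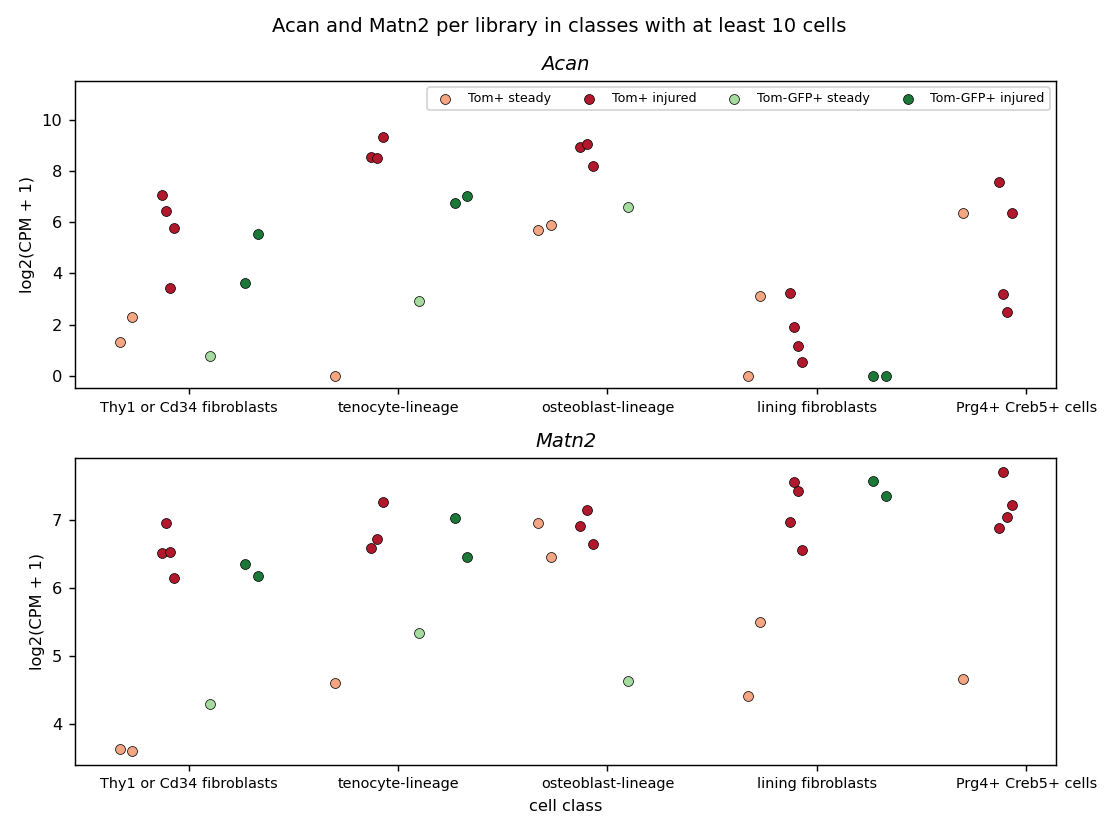
Levels of Acan and Matn2, as log2(CPM + 1), in 5 classes for every library with at least 10 cells of the class, coloured by group. Acan is above the steady-state libraries after injury in fibroblasts, tenocyte-lineage and osteoblast-lineage cells but overlaps in the lining, whereas Matn2 is above them in fibroblasts, lining and tenocyte-lineage cells and overlaps in Tom+ osteoblast-lineage cells.

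*Comp* ran the other way. In Tom+ fibroblasts it stood at 1367 and 2070 CPM in the steady state and at 299.8, 694.1, 1250.4 and 692.3 CPM after injury, and in Tom-GFP+ fibroblasts at 706.5 CPM and then 159.9 and 527.0 CPM. Each injured library lay below the steady-state libraries of its lineage, but the difference in Tom+ fibroblasts, -1.24 ± 0.55 on the log2 scale, did not pass (adjusted p = 0.159, edgeR). With the list format as a term it was -2.57 ± 0.68, a value that rests on injured Tom+ library 1, the lowest of its group. Tom+ fibroblasts held *Comp* in 69.4% of cells before and 66.5% after injury.

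In osteoblast-lineage cells, where *Comp* was lower after injury, the libraries stood at 3902 and 6155 CPM and then at 2127, 1759 and 1521 CPM, without overlap. That call was lost without steady-state Tom+ library 1 (adjusted p = 0.233) or 2 (0.421), without injured Tom+ library 2 (0.0719), with the list format as a term (0.224) and with the replicate number as a block (0.171), all in edgeR. Tenocyte-lineage cells held 9173 and 4881 CPM in the steady-state Tom+ and Tom-GFP+ libraries and 937 to 1874 CPM in the 5 injured ones, again without overlap, although the 7 cells of injured Tom+ library 3 held 5236 CPM. The Tom-GFP+ difference there was -1.53 ± 0.39 (adjusted p = 0.102, edgeR). In the injured Tom+ fibroblasts, cells with 3 or 4 injury markers held 338.0 CPM and those with 0 or 1 held 1135 CPM, the reverse of the order of *Acan* and *Vcan*. These sums are pooled over libraries as well, and subset and library cannot be told apart.

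*Chad* resembled *Comp* across classes, with a Pearson correlation of 0.905 over the 27 class-by-group profiles, and with most of its counts in few cells. In Tom+ fibroblasts it stood at 212.4 and 137.8 CPM and then at 56.0, 2.27, 47.4 and 8.96 CPM, each injured library below the steady state, with a difference of -2.62 ± 0.83 (adjusted p = 0.0684, edgeR). The 3 richest cells held 69.8% of those UMIs in the steady-state and 89.0% in the injured Tom+ fibroblasts. Tenocyte-lineage cells held 5842 and 4631 CPM in the steady-state Tom+ and Tom-GFP+ libraries, and after injury 72.0, 5.23 and 25.6 CPM in the Tom+ and 329.1 and 1019 CPM in the Tom-GFP+ libraries. Among libraries with at least 10 such cells, the lineages did not overlap after injury. Injured *Chad* UMIs of the class numbered 640, with 474 in those Tom-GFP+ libraries and 125 in those Tom+ libraries. The rest lay in the 7 cells of injured Tom+ library 3, with which the lineages overlapped. The difference of -4.12 ± 0.75, fitted without that library, did not pass (adjusted p = 0.187, edgeR). It passed without injured Tom+ library 1 (-5.86, adjusted p = 0.0443), with the list format as a term (-5.87, adjusted p = 0.0145) and with the replicate number as a block (-3.99, adjusted p = 0.000776), all in edgeR. *Chad* was found in 14 of 20 steady-state Tom+ tenocyte-lineage cells (70.0%) and in 16 of 149 injured ones (10.7%), at a median depth of 9809.5 and 17128 UMIs.

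**Figure D5:**
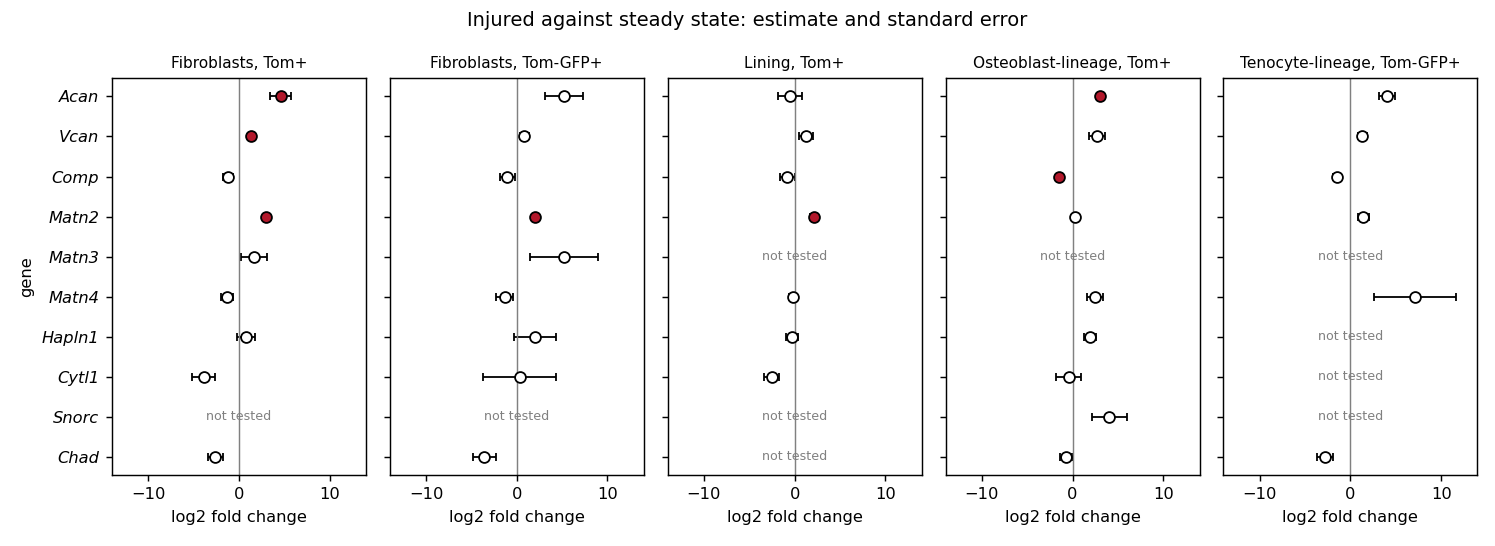
Log2 fold change after injury, with its SE from edgeR, for the tested members in Tom+ fibroblasts, Tom-GFP+ fibroblasts, Tom+ lining cells, Tom+ osteoblast-lineage cells and Tom-GFP+ tenocyte-lineage cells, with filled symbols for an adjusted p under 0.05. Matn2 is filled in 3 panels and Acan in 2, and Comp is filled below 0 in osteoblast-lineage cells.

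Outside the chondrocyte class, *Cytl1* was carried by a handful of cells. In steady-state Tom+ fibroblasts it stood at 3.47 and 99.0 CPM, and 3 cells held 91.8% of its 282 UMIs. The injured libraries ran from 0 to 13.0 CPM. The difference of -3.86 ± 1.28 did not pass (adjusted p = 0.0764, edgeR) and became 0.14 without steady-state Tom+ library 2. All 146 *Cytl1* UMIs of the injured Tom+ osteoblast-lineage class lay in 1 cell, and 0 of 149 injured Tom+ tenocyte-lineage cells held a UMI of it, which allows up to 2.45% of cells with a UMI (exact Clopper-Pearson interval). *Snorc* was found in 6 of 552 steady-state and 8 of 1246 injured Tom+ fibroblasts and in 0 of 340 and 0 of 525 Tom-GFP+ fibroblasts. In osteoblast-lineage cells it was found in 1 of 96 steady-state and 6 of 92 injured Tom+ cells.

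Between the lineages no member passed in edgeR in the 5 comparisons of a class, including that of injured tenocyte-lineage cells. There, by contrast, DESeq2 called *Acan*, the fit with the list format as a term called *Chad* and the fit with the replicate number as a block called both. With no filter on low counts 1 to 4 members passed in each of the 5. In injured fibroblasts 0.0389% of genes passed (5 genes, while 635 had an unadjusted p under 0.05 and DESeq2 called 49), and in steady-state fibroblasts 0.0233% (3 genes, 576 and 29). In injured lining cells 0.0104% passed (1 gene, 334 and 3), and in steady-state osteoblast-lineage cells 0.038% (2 genes, 323 and 7). Since Tom-GFP+ cells were sorted from mice matched to those of Tom+ cells, the replicate number was also used as a block, leaving out the steady-state Tom-GFP+ library, and 3 genes then passed in injured fibroblasts and 4 in injured lining cells. For *Vcan* in injured fibroblasts the difference between lineages was 0.26 ± 0.31 and for *Matn2* 0.32 ± 0.22 on the log2 scale (adjusted p = 1.0 for both, edgeR). For *Comp* it was 1.12 ± 0.60 after injury, where the lineages overlapped (adjusted p = 1.0, edgeR).

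Genes that work with the 10 were read from lists of related genes. Of 24 genes of chondroitin sulfate synthesis, 22 were tested in Tom+ fibroblasts, where 3 were higher and 2 lower after injury, with a median log2 fold change of 0.21 against 0.0025 over all genes. *Chsy1*, a chain-building enzyme, rose from 8.10 ± 0.25 (SD, n = 2) to 30.2 ± 10.9 CPM (SD, n = 4), by 1.89 ± 0.35 on the log2 scale (adjusted p = 0.0144, edgeR). *Csgalnact1*, which starts the chain, and *Chst11*, which sulfates it, were higher by 1.60 ± 0.32 and 1.35 ± 0.25 (adjusted p = 0.0191 and 0.0146, edgeR). *Papss1*, which makes the sulfate donor, was lower, at -0.88 ± 0.21 (adjusted p = 0.032, edgeR).

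The enzymes that cleave aggrecan and versican split. Of 7 listed, 4 were tested in Tom+ fibroblasts, with a median log2 fold change of -0.14. *Adamts5* fell from 274.5 ± 24.3 (SD, n = 2) to 81.2 ± 14.2 CPM (SD, n = 4), a log2 fold change of -1.77 ± 0.22 (adjusted p = 0.00296, edgeR), and *Adamts4* rose from 5.54 ± 0.82 to 15.8 ± 4.4 CPM (1.49 ± 0.37, adjusted p = 0.0354, edgeR). *Adamts5* was also lower in Tom+ lining cells (-1.12 ± 0.28, adjusted p = 0.0489) and osteoblast-lineage cells (-1.93 ± 0.30, adjusted p = 0.0178, edgeR). Of 18 family relatives 9 were tested, with a median of -0.65, and the thrombospondins *Thbs1* and *Thbs2* were higher by 2.51 ± 0.49 and 0.85 ± 0.22 (adjusted p = 0.0159 and 0.0374, edgeR). *Ucma*, a cartilage protein, was lower, at -5.29 ± 1.30 (adjusted p = 0.0331, edgeR), from 10.1 ± 14.3 CPM (SD, n = 2) to 0.228 ± 0.281 (SD, n = 4). Of the 3 Sox factors of chondrocyte development, all tested, 0 passed in edgeR, and the median was 0.41.

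In the other tests of injury the same lists gave few calls. In Tom+ lining cells *Thbs3* was higher by 1.21 ± 0.26 and *Thbs4* and *Thbs1* lower, at -4.15 ± 0.52 and -2.61 ± 0.42 (adjusted p = 0.0311, 0.00585 and 0.0125, edgeR), and *Chst15* was lower, at -1.91 ± 0.30 (adjusted p = 0.0122, edgeR). In Tom+ osteoblast-lineage cells *Thbs4*, the relative of *Comp*, was lower, at -4.23 ± 0.60 (adjusted p = 0.0121, edgeR). In Tom-GFP+ fibroblasts 0 genes of all 4 lists passed in edgeR, and in Tom-GFP+ tenocyte-lineage cells *Cilp2*, named after its value was seen, passed at -2.60 ± 0.41 (adjusted p = 0.0187, edgeR).

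Genes with the most similar profiles were taken over 27 class-by-group means and 13480 genes, as a description over points that share libraries. *Acan* was most like *Col27a1*, *Mdfi* and *Baiap2l1* (Pearson correlations of 0.890, 0.879 and 0.846), and its closest member was *Hapln1* (0.836). *Vcan* was most like *Ociad2*, *Anpep* and *Fbln2* (0.877, 0.876 and 0.874) and least like *Snorc* among the members (-0.619). *Comp* was most like *Tceal3*, *1500015O10Rik* and *Clec11a* (0.973, 0.933 and 0.929), *Chad* like *Crispld1*, *Wif1* and *Comp* (0.934, 0.922 and 0.905), and *Matn2* like *Ctsk*, *Socs2* and *Zfp637* (0.879, 0.876 and 0.868). *Matn3* was most like *Col9a1*, *Col9a2* and *Ncmap* (0.953, 0.941 and 0.936) and *Snorc* like *Matn3*, *Col9a2* and *Mia* (0.932, 0.930 and 0.928), and 2 of those collagens were among the markers of the class. *Hapln1* was most like *Fgfr3*, *Ppp1r1b* and *Baiap2l1* (0.933, 0.901 and 0.894), *Cytl1* like *Meltf*, *Ppp1r1b* and *Mall* (0.949, 0.919 and 0.904), and *Matn4* like *Gm44899*, *Zfp385b* and *Enho* (0.810, 0.768 and 0.766).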

How the data were processed

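Single-cell RNA libraries of sorted knee joint cells were read as count matrices of UMIs, deposited by the authors as whole-number counts per gene and barcode and not normalized. They had been made with Cell Ranger on GRCm38.p6, version 3.0.2 for the 5 libraries with the newer gene list format, while the version for the other 4 is not given in the sources used here. The 10 genes and the lists of related genes were chosen with earlier results of these data known. A barcode was kept when it held 500 genes and 1000 UMIs or more and no more than 10% of its UMIs were mitochondrial. Classes were set by marker counts, with gates set after marker counts were seen, and 464 cells stayed unclassed. No doublet caller was run. Instead, the deepest 5% of cells of each library, or cells that passed the gates of 2 or more classes, were left out as alternatives. Libraries shared 14 barcodes, 12 of them among kept cells.

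UMIs were summed per class and library with at least 10 cells, and tested with edgeR 4.0.16 (quasi-likelihood test, TMM factors, filterByExpr, Benjamini-Hochberg adjustment over all genes, threshold 0.05) in R 4.3.3. All groups of a class shared one estimate of the spread, and class differences were fitted with the library as a block. DESeq2 1.42.0 was an alternative, with RLE factors, no filter on low counts, stricter gates, a stricter cell filter (at least 1000 genes, at most 5% mitochondrial UMIs), the gene list format or the replicate number as a block, each library left out, and, chosen after seeing the data, no cycling cells. Shares of cells were thinned to 5000 UMIs, or 3000 as an alternative, and intervals are exact at 95% and cover counting error only. A count of 0 was given a floor of 3 counts. The study gives as many mice as libraries and takes the Tom-GFP+ mice as matched to Tom+ mice, but which libraries share a mouse is not given in the sources used here, and the lineage tests treated them as independent. The fits with the replicate number as a block left out the steady-state Tom-GFP+ library. For injury this block also joined steady-state and injured libraries of the same number, although nothing in the labels pairs mice across states. With the list format as a term, injury in Tom+ cells was read from injured Tom+ library 1 alone. In Tom-GFP+ cells format and injury coincide, and the term comes from the Tom+ libraries. The procedure was tested on simulated data. For injury in Tom+ fibroblasts (12851 genes), 4-fold changes were recovered in 63% of cases and 2-fold changes in 7%. It was 67% and 11% in Tom+ osteoblast-lineage cells (5267 genes), and 18% and 0% in Tom-GFP+ fibroblasts (12851 genes). False calls in these were 6 of 76, 14 of 92 and 2 of 20, each a larger share than the threshold of 0.05. They were 3 of 82 for injury in Tom+ lining cells and 12 of 78 between lineages in injured fibroblasts. All 10 genes were named, with the 3 genes of most similar profile (among those reaching 10 CPM) and up to 4 members of each list that passed in Tom+ cells. Python 3.11.15 with numpy 2.4.6, scipy 1.17.1 and pandas 2.3.3 was used for the rest.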

Additional observations from a re-analysis of the deposited data

Results flagged for a closer look

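Of 30 groups of 4 libraries examined for a library far from the others, 3 had one, and chance gives about 1 in 20 groups. *Matn3* in injured Tom+ fibroblasts stood at 5.78 CPM in library 4, from 20 UMIs, and at most 1.17 CPM in the other 3 libraries. In injured Tom+ Prg4+Creb5+ cells, *Chad* stood at 318 CPM in library 1, from 151 UMIs, against at most 4.72 CPM in the others. In the same library and class *Cytl1* stood at 881 CPM, from 418 UMIs, and 0 CPM in the other 3 libraries. These UMIs lay in 3 cells, 213 of them in 1 cell. The rate of 1 in 20 need not hold for counts carried by so few cells.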

How the results depend on the processing

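For the single genes, 932 recomputed values kept direction and side of the threshold, 53 passed only under the alternative, 37 no longer passed and 17 changed direction, and the cause of these changes was not tested. Counts below are genes passing, then members of the 10 passing where that count moved. A member count given alone is not set against the share of all genes under that alternative, and is not read as a result about the members. With no filter on low counts, which tests more genes, the counts were 2961 and 7 (injury, Tom+ fibroblasts), 1713 and 3 (injury, Tom-GFP+ fibroblasts), 409 and 4 (lineage, injured fibroblasts), 242 and 1 (lineage, steady-state fibroblasts), 64 and 1 (difference between the injury effects), 1111 and 5 (injury, Tom+ lining), 76 and 1 (lineage, lining), 474 and 6 (injury, Tom+ osteoblast-lineage), 58 and 3 (lineage, steady-state osteoblast-lineage), 466 and 3 (injury, Tom-GFP+ tenocyte-lineage), 164 and 4 (lineage, tenocyte-lineage), and 1951 and 944 genes for osteoblast-lineage and tenocyte-lineage cells against fibroblasts. DESeq2 gave 542 genes for injury in Tom-GFP+ fibroblasts, 49 and 29 for lineage in injured and steady-state fibroblasts, 2 for the difference between injury effects, 3 for lineage in lining, 7 for lineage in osteoblast-lineage cells, 1 member for injury in Tom-GFP+ tenocyte-lineage cells, and 14 genes and 1 member for lineage there. With the gene list format as a block, 5 members passed for injury in Tom+ fibroblasts, 765 genes and 3 members in Tom-GFP+ fibroblasts, 20 genes for lineage in steady-state fibroblasts, 64 genes and 0 members for injury in lining, 1 member for injury in osteoblast-lineage cells, 18 genes for lineage there, 24 genes for injury in tenocyte-lineage cells, and 3 genes and 1 member for lineage there. Under a stricter gate 0 members passed for injury in Tom-GFP+ fibroblasts, 3 genes for lineage in injured fibroblasts, 4 members for lining against fibroblasts, 571 genes for osteoblast-lineage, 120 genes and 2 members for tenocyte-lineage and 1129 genes for chondrocyte-lineage cells against fibroblasts, the last 1071 with cells of 2 gates left out. A stricter cell filter gave 3 genes for lineage in injured fibroblasts and 5 for lineage in osteoblast-lineage cells, leaving out the deepest cells gave 3 and 1, and 11 for lineage in tenocyte-lineage cells. Without cycling cells, an alternative chosen after seeing the data, 326, 9 and 6 genes passed for injury in Tom-GFP+ fibroblasts and for lineage in injured and steady-state fibroblasts. The rise in the share of fibroblasts with *Matn2* was 27.4 percentage points at 5000 and 18.8 at 3000 UMIs.

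The Tom-GFP+ mice were matched to Tom+ mice, but the labels do not say that a shared number marks a shared mouse, and same-numbered libraries had correlations of 0.0511, 0.130, 0.315, 0.0504 and -0.0497 in their deviations, of which 0.315 and 0.0504 are for Tom+ and Tom-GFP+ libraries after injury. With the replicate block 6 members passed for injury in Tom+ fibroblasts, 3 genes for lineage in injured fibroblasts, 184 genes for injury and 4 for lineage in lining, 0 genes and 0 members for injury in osteoblast-lineage cells, and 123 genes and 2 members for lineage in tenocyte-lineage cells. *Cytl1* between lineages in injured fibroblasts turned to -1.12 and *Comp* after injury in lining to 0.30 with that block.

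Other directions turned for *Cytl1* after injury: 0.14 in Tom+ fibroblasts and 0.053 in lining without steady-state Tom+ library 2, and in osteoblast-lineage cells 0.060 with cells of 2 gates left out, 2.64 without steady-state Tom+ library 2, 0.29 and 0.09 without injured Tom+ libraries 2 and 4, and 1.07 with the format block. *Cytl1* between lineages in injured fibroblasts was -0.023 without injured Tom+ library 4, and *Chad* there -1.05 with a stricter gate. *Comp* in lining was 1.99 with a stricter gate, 2.24 without the deepest cells, 9.81 without steady-state Tom+ library 2 and 0.0039 with the format block. *Matn4* between lineages in tenocyte-lineage cells was 0.078 without injured Tom-GFP+ library 2, and *Matn2* in chondrocyte-lineage cells against fibroblasts 0.064 without injured Tom+ library 3. With each library left out in turn, these log2 fold changes ranged from -5.87 to 0.14 (*Cytl1*, injury, Tom+ fibroblasts), -0.023 to 2.70 (*Cytl1*, lineage, injured fibroblasts), -1.62 to 9.81 (*Comp*, lining), -3.21 to 0.053 (*Cytl1*, lining), -8.94 to 2.64 (*Cytl1*, osteoblast-lineage), -4.50 to 0.078 (*Matn4*, tenocyte-lineage) and -1.47 to 0.064 (*Matn2*, chondrocyte-lineage). Leaving out each library in turn gave ranges of 172 to 2036 genes and 1 to 4 members for injury in Tom+ fibroblasts, 0 to 1112 and 0 to 1 in Tom-GFP+ fibroblasts, 1 to 11 and 0 to 24 genes for lineage in injured and steady-state fibroblasts, 0 to 0 genes for the difference between injury effects, 27 to 566 and 0 to 2 for injury and 1 to 2 genes for lineage in lining, 0 to 213 and 0 to 3 for injury and 0 to 10 genes for lineage in osteoblast-lineage cells, and 42 to 161 and 0 to 2 for injury and 0 to 12 and 0 to 1 for lineage in tenocyte-lineage cells. Where that left 1 library in a group, it was assumed to vary like the others. Against fibroblasts the ranges were 3097 to 3762 genes and 7 to 7 members (lining), 618 to 1070 and 5 to 6 (osteoblast-lineage), 390 to 574 and 3 to 4 (tenocyte-lineage) and 1265 to 1589 and 9 to 10 (chondrocyte-lineage). Depth limited the low genes: *Snorc* had 6 UMIs in steady-state and 8 in injured Tom+ fibroblasts.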

Other observations

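The Prg4+Creb5+ cells held several of the 10 genes in the steady state, in 1 Tom+ library with 15 such cells, and an injury effect was not tested here. *Comp* stood there at 7638 CPM and at 923, 632, 689 and 513 CPM in the 4 injured Tom+ libraries, and *Acan* at 80.8 CPM and then 189.7, 8.18, 4.72 and 80.3 CPM. The other steady-state Tom+ library, with 7 such cells, held 774.8 CPM of *Comp* and 19.4 CPM of *Acan*, both within the range of the injured libraries.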
